A study of Mus musculus with 12 samples.

Results

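The 10 genes described here encode transcription factors that set the identity of surface epithelia: Pax6, Trp63, the Ets factors Ehf and Elf3, the grainyhead-like factors Grhl1, Grhl2 and Grhl3, and Ovol1, Foxc1 and Sox9. They were taken by name from the platform annotation, which gives them 27 of the 45101 probe sets of the array, each for that gene alone. A filter on low signal kept 23 of these 27, among 30600 kept in all, and every one of the 10 genes was among the 14163 genes tested. Each gene was read on its kept probe set of highest mean signal, and that probe set was called Present (detected) on all 12 arrays for all 10 genes. The samples were epithelium of the mouse conjunctival fornix, the deep fold between eyelid and eyeball, cut out by laser capture, with 1 array per sample. The 4 groups of 3 samples were Klf4CN, labelled as a conditional knockout of Klf4, at postnatal day 14 (PN14), and 3 wild-type groups, aged PN9, PN14 and PN20, all on a mixed background. The sources used here name neither the deleted part of Klf4 nor the Cre line. In published work on mice of this name the Cre transgene carries regulatory sequence of Pax6, given here as background only.

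As background, surface epithelia are held in their identity by a small network of such factors. Pax6 directs formation of the eye and maintains the ocular surface, Trp63 maintains basal cells of stratified epithelia, and the Ets factors Elf3 and Ehf act in differentiating epithelial cells. Grainyhead-like factors switch on genes of cell junctions and of the epithelial barrier, Ovol1 restrains proliferation of progenitors and represses mesenchymal genes, Foxc1 is needed for development of the front of the eye, and Sox9 marks progenitors of several glands and of the hair follicle. Klf4 is a zinc finger factor of differentiating epithelia, studied here by its removal.

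Signals are linear array intensities scaled to a common median. Changes are differences of log2(signal + 16) with limma's standard error, and folds are on that scale, which understates changes of dim genes. A change passed at an adjusted p under 0.05 (limma, Benjamini-Hochberg over all 14163 genes). The labels tie no sample to an animal, so the p-values speak for the spread among these samples alone, part of which may be technical, and 3 arrays a group limit the precision. In tissue samples such as these, fewer cells of a type and less RNA per cell cannot be told apart.

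Some differences between arrays run along with the groups. The ratio of 3' to 5' signal of the beta-actin control, higher where RNA is shortened, was 15.2, 5.4 and 17.5 in Klf4CN, 46.8, 33.8 and 24.2 at PN9, 11.1, 24.9 and 21.1 at PN14 and 9.76, 16.5 and 11.9 at PN20, with every PN20 array below every PN9 array. Klf4CN replicate 3 stood apart. Its correlation with the other arrays of its group was 0.939 and 0.945, against 0.976 between those other arrays, over all probe sets of the array before scaling. For 9 of the 10 genes (all but Sox9) it was the lowest of its group, as it was for 44.4% of all genes. The summed signal of 9 markers of conjunctival epithelium was 22729.9 on that array, against 35022 and 35459.5 on the other Klf4CN arrays and 29348 to 42267 at PN14 in wild type. Its 9 stromal markers summed to 58982, against 38352 and 41469 on the other Klf4CN arrays, and its 9 skeletal muscle markers to 39814, against 13889 and 16469. All 9 epithelial markers had a Present call in every group. Klf4 read 10923, 8815 and 7417 in Klf4CN, against 4385, 6824 and 5285 in wild type at PN14, a change of 0.72 (adjusted p = 0.22). Since the deleted part is unknown here, this signal checks no label.

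Between PN9 and PN20 in wild type, 5 of the 10 genes rose: Elf3, Grhl3, Grhl1, Ehf and Trp63, by 2.33 to 3.2-fold. None of the 10 passed as lower. Over all genes, 13.5% were called higher in that comparison, 10.8% lower and 24.3% in either direction. Already at PN14, Elf3 and Grhl3 were above their PN9 level and passed, 2 of 10, where 4.34% of all genes were called higher and 7% in either direction. Between PN14 and PN20 none of the 10 passed, where 1.35% of all genes did, and none had an unadjusted p under 0.05, which 2392 of all genes had. The median change of the 10 genes was 0.68 from PN9 to PN14, 0.42 from PN14 to PN20 and 1.01 from PN9 to PN20, beside medians of all genes of 0.010, 0.012 and 0.023. The moderated F test over the 3 ages called the same 5 genes, where it called 20.1% of all genes. Skeletal muscle markers differed between the ages too: the 9 of that list summed to 257 to 10223 at PN9, 14647 to 24819.6 at PN14 and 3192 to 11680.2 at PN20, with every PN14 array above all arrays of the other ages. Of these 9, 4 rose at PN14 over PN9 (7 without Klf4CN replicate 3), none passed in the other comparisons of ages with all arrays, and their part in the members' changes was not tested.

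**Figure D1:**
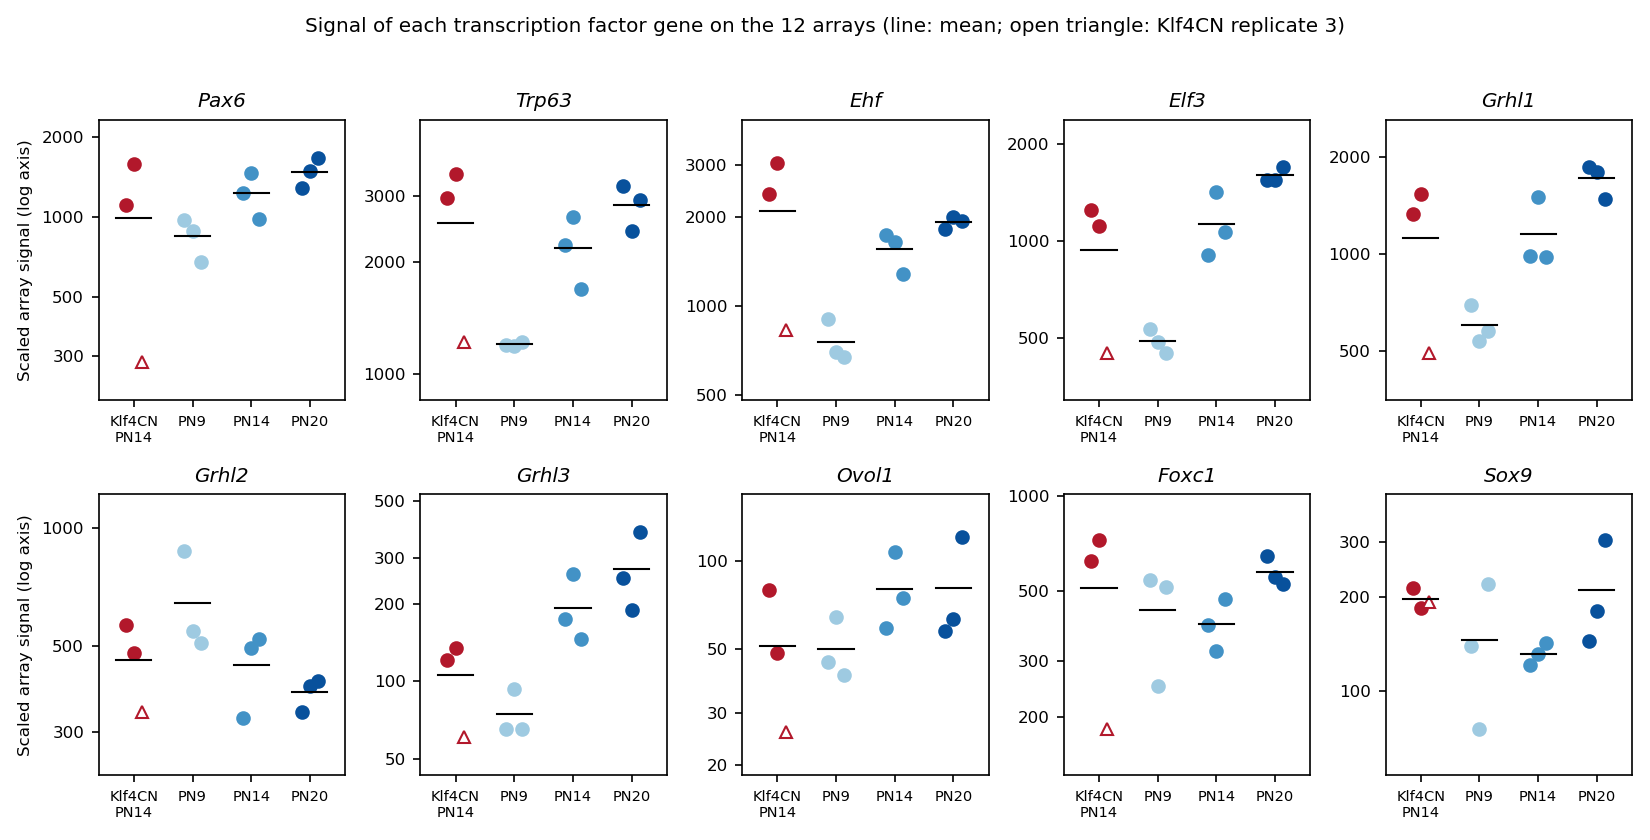
Scaled array signal (log axis, a range of its own for each gene) of the 10 transcription factor genes on the 12 arrays, with Klf4CN at PN14 on the left, then the wild-type ages from PN9 to PN20. Points are arrays, lines are means of 3, and the open triangle is Klf4CN replicate 3. For Elf3, Grhl1, Grhl3, Ehf and Trp63 all PN20 points lie above all PN9 points.

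Elf3, an Ets factor that drives differentiation genes of epithelial linings, was read on probe set 1416916_at. Its signal was 534, 485 and 449 on the PN9 arrays, 905, 1415 and 1065 on the PN14 arrays and 1549, 1542 and 1701 on the PN20 arrays. The 3 ages did not overlap, with PN9 lowest and PN20 highest, and the PN20 arrays lay close together. Its PN20 over PN9 change was the largest estimate of the 10 genes, with that of Grhl3 within its error. Elf3 averaged 1597 ± 89.8 at PN20 and 489 ± 42.8 at PN9 (SD, n = 3 each), a rise of 3.2-fold (1.68 ± 0.30, adjusted p = 0.00172). By PN14 it had risen 2.23-fold over PN9 (1.16 ± 0.30, adjusted p = 0.0375). The step from PN14 to PN20 was 0.52 ± 0.30, which did not pass (adjusted p = 0.421, 95% interval -0.14 to 1.17).

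Ehf, its close relative among the Ets factors and abundant in stratified and glandular epithelium, was read on probe set 1451375_at. It gave 901, 697 and 669 at PN9, 1738, 1644 and 1284 at PN14 and 1821, 2002 and 1938 at PN20. Again no array of 1 age overlapped another age, and the PN14 mean was nearer to that of PN20 than to that of PN9. Ehf rose 2.53-fold at PN20 over PN9 (1.34 ± 0.35, adjusted p = 0.0143), with means of 1921 ± 91.7 and 756 ± 127. The PN14 over PN9 change was of similar size, 1.03 ± 0.35, and did not pass (adjusted p = 0.0886). The changes of Elf3 and Ehf at PN20 over PN9 differed by 0.34 within arrays. In 16 such differences between related genes, an exact permutation test of 3 arrays against 3 cannot give a p below 0.1, which was its value here (two-sided, 0.229 after Benjamini-Hochberg adjustment over the 16).

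Grhl3, the grainyhead-like factor needed for the epidermal barrier and for eyelid closure in mice, was read on probe set 1436932_at. Its signal was 65.2, 93.6 and 65.7 at PN9, 174, 259 and 146 at PN14 and 252, 188 and 379 at PN20. All PN14 and PN20 arrays lay above all PN9 arrays, while PN14 and PN20 overlapped. Grhl3 rose 2.27-fold at PN14 over PN9 (1.18 ± 0.30, adjusted p = 0.0341) and 3.1-fold at PN20 over PN9 (1.63 ± 0.30, adjusted p = 0.00194). Grhl3 averaged 273 ± 96.9 at PN20 and 74.8 ± 16.3 at PN9.

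Grhl1, which in mouse skin supports desmosomal adhesion, was read on probe set 1424030_at. It gave 697, 539 and 577 at PN9, 988, 1507 and 979 at PN14 and 1873, 1806 and 1489 at PN20. PN9 lay below both later ages, and PN14 replicate 2 exceeded the lowest PN20 array. At PN20 Grhl1 had risen 2.8-fold over PN9 (1.49 ± 0.34, adjusted p = 0.0061), with means of 1723 ± 205 and 604 ± 82.8. At PN14 the change was 0.90 ± 0.34 and did not pass (adjusted p = 0.111).

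Grhl2, which controls junction genes such as Cdh1 and Cldn4 in mouse embryonic epithelium, was alone among the 10 in having all 3 age estimates below 0, on its main probe set 1427046_at. Its signal was 874, 545 and 507 at PN9, 326, 492 and 521 at PN14 and 339, 395 and 406 at PN20. Every PN20 array lay below every PN9 array, PN14 overlapped both, and PN9 replicate 1 was the highest of all 12 arrays. The PN20 over PN9 change was -0.70 ± 0.25, 1.62-fold lower, and did not pass (adjusted p = 0.0611, 95% interval -1.24 to -0.15). It passed with the values as deposited (adjusted p = 0.0152), with quantile normalization (0.0139), with only the groups compared in the fit (0.0361), without PN9 replicate 3 (0.0429) and without Klf4CN replicate 3 (0.0322), and was -0.099 with the actin ratio as a covariate. Without PN9 replicate 1 the change was smaller, -0.46 (adjusted p = 0.249). The adjusted p was 0.181, 0.114 and 0.110 without PN20 replicate 1, 2 and 3 in turn, and 0.131 with the median of all probe sets. Within arrays, the change of Grhl3 exceeded that of Grhl2 by 2.33 at PN20 over PN9 and by 1.68 at PN14 over PN9. Grhl1 exceeded Grhl2 by 2.18 and 1.39 in the same comparisons. In these 4 differences the arrays of the compared ages did not overlap, and the exact permutation p was 0.1 each (0.229 adjusted over the 16), the smallest that 3 against 3 allow.

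The promoters of the pair that passed both at PN14 and at PN20, Elf3 and Grhl3, are shown because both genes rose with age and because Klf4 and its relatives bind CACCC boxes. RefSeq's promoter table for GRCm38.p6 held 5 of the 10 genes. Each sequence is the 250 bases before the annotated start, 5′ to 3′ on the strand of the gene, which is the minus strand for both, and capitals mark CACCC on either strand (GGGTG on the other).
Elf3, chr1:135258473-135258722: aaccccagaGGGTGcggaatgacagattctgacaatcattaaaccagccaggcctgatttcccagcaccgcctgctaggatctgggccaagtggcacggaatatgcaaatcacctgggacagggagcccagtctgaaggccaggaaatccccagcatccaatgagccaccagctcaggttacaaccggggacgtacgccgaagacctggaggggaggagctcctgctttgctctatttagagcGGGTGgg
Grhl3, chr4:135573633-135573882: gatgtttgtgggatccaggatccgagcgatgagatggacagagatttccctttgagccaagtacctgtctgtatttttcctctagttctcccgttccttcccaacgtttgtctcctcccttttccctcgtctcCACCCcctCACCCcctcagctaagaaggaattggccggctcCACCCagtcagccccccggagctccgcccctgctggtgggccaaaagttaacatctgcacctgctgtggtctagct
The Elf3 stretch holds 2 such matches and the Grhl3 stretch 3. A CACCC box stood in 52% of the 32851 promoters of the table over the same length. Neither stretch holds AACCNGTT, a grainyhead-type site found in 1.79% of promoters, or CCGGAAG, an Ets-type site found in 6.91%, with both strands searched and no overlap between the motifs. Of the genes in the promoter table but not shown, Grhl1, which also rose with age, had 0 and 2 CACCC matches at its starts. Foxc1 had 1, and Pax6 had 0 at each start. All of these are letter matches only, and no binding was measured here.

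Trp63, the master regulator of the basal layer, was read on probe set 1418158_at. Its signal was 1199, 1194 and 1220.5 at PN9, 2218, 2644 and 1689 at PN14 and 3189, 2417 and 2928 at PN20. The PN9 arrays were almost equal and lay below all PN14 and PN20 arrays, which overlapped each other. Trp63 rose 2.33-fold at PN20 over PN9 (1.22 ± 0.31, adjusted p = 0.0116), averaging 2845 ± 393 at PN20 and 1205 ± 14 at PN9. The PN14 over PN9 change of 0.83 ± 0.31 did not pass (adjusted p = 0.111).

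Pax6, which keeps corneal and conjunctival cells from taking on a skin-like state, was read on probe set 1419271_at. It gave 974, 885 and 680.1 at PN9, 1237, 1468 and 987 at PN14 and 1293, 1491 and 1666 at PN20. All PN14 and PN20 arrays lay above all PN9 arrays. The PN20 over PN9 change of Pax6 was 0.81 ± 0.44 and did not pass with all 12 arrays in the fit (adjusted p = 0.2). It passed when Klf4CN replicate 3 was left out of the fit (adjusted p = 0.00852) and when only the groups compared were fitted (0.0086). Pax6 is also a gene of lens and retina, and 10 markers of those tissues summed to 912 to 7145 at PN9, 4596 to 10210.4 at PN14 and 6789 to 8521 at PN20. Of these 10, 2 rose at PN20 over PN9, Gnat1 (13.9-fold) and Sag (6.85-fold), where 13.5% of all genes were called higher. Without Klf4CN replicate 3, 4 rose there, where 30.6% of all genes were called in either direction. Gnat1 and Sag also rose at PN14 over PN9 (9.61-fold and 7.54-fold), where 4.34% of all genes were called higher. The lens crystallin gene Crygs gave 3114, 292 and 940.3 at PN9, 2954, 2271 and 4670.3 at PN14 and 3650, 2964 and 3131 at PN20, and Cryaa, another, 2220.5, 270.2 and 868, 1257, 662 and 2451 and 1878, 1436 and 1661 at these ages. Bfsp2, a lens fibre gene, was Present on no array. For cornea, 4 markers summed to 16431 to 29766 at PN9, 19863 to 32780 at PN14 and 16206 to 27500 at PN20. None of these 4 passed between ages with all arrays. Without Klf4CN replicate 3, 1 rose at PN14 and at PN20 over PN9, where 14.7% and 30.6% of all genes were called. In Klf4CN the 4 cornea markers summed to 27231, 23970 and 13222, the last on replicate 3. The part of these tissues in the Pax6 signal was not tested.

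Ovol1, Foxc1 and Sox9 did not pass in any comparison of ages. Ovol1, a zinc finger repressor, was dim on probe set 1419051_at, with 45.1, 64.1 and 40.7 at PN9, 59.1, 107 and 74.8 at PN14 and 57.4, 63.4 and 121 at PN20. The ages overlapped, and the PN20 over PN9 change was 0.51 ± 0.32 (adjusted p = 0.273, 95% interval -0.18 to 1.19). Foxc1, a forkhead factor, gave 542, 251 and 514 at PN9, 389.8, 323 and 472 at PN14 and 647, 555 and 528 at PN20 on probe set 1419485_at. PN20 lay above PN14 on every array but overlapped PN9, whose replicate 2 was low, and the PN20 over PN14 change was 0.54 ± 0.41 (adjusted p = 0.551). Sox9, an HMG box factor, gave 139, 75.1 and 220.3 at PN9, 120.5, 131 and 142 at PN14 and 144, 180 and 304 at PN20 on probe set 1424950_at. Its PN9 arrays differed widely among themselves and overlapped both later ages, and the PN20 over PN9 change was 0.53 ± 0.31 (adjusted p = 0.235, and 0.0469 without PN9 replicate 3).

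**Figure D2:**
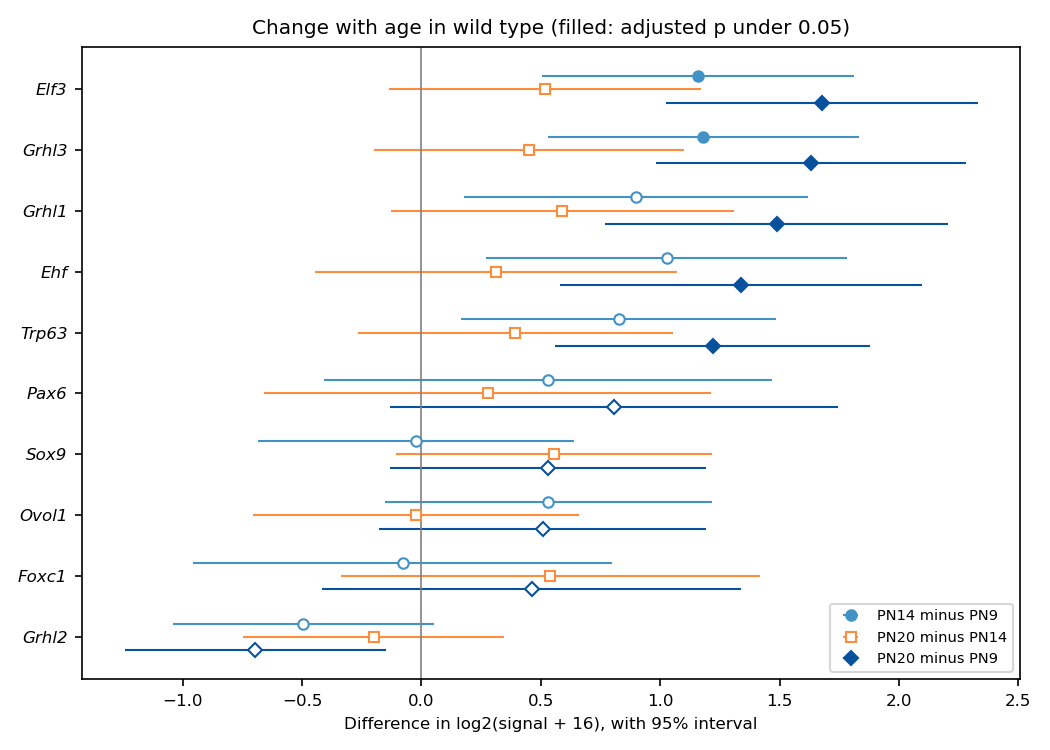
Differences between ages in wild type in log2(signal + 16), with 95% intervals from limma, for the 10 genes ordered by their PN20 minus PN9 value. Filled symbols passed at an adjusted p under 0.05: 2 of 10 for PN14 minus PN9, 0 for PN20 minus PN14 and 5 for PN20 minus PN9.

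Counted by array overlap alone, 6 of the 10 genes had all PN14 arrays above all PN9 arrays, where 17% of all genes did. At PN20 against PN9, 6 genes lay wholly above, where 25.2% of all genes did, and Grhl2 lay wholly below, where 18.5% did. Between PN20 and PN14, 4 genes lay wholly above (Ehf, Elf3, Foxc1 and Sox9), where 16.2% did. In the authors' deposited table the code for their own rule, read on the brightest probe set of each gene, names the same 5 genes for PN20 against PN9, Elf3 and Grhl3 for PN14 against PN9, and none for PN20 against PN14, where the rule takes 13.5%, 5.44% and 2.94% of all genes. Of the members' other probe sets the deposited code names 1, that of Ehf with ID 1419475_a_at, for both PN14 and PN20 against PN9. In that table the sum over 9 pairwise comparisons was 9, the most it can be, for Pax6, Trp63, Ehf, Elf3, Grhl1 and Grhl3 at PN20 against PN9, and -4 for Grhl2.

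With the actin ratio as a covariate no member passed in any comparison, while the PN20 over PN9 changes of the 5 genes stood between 0.80 (Trp63) and 1.72 (Elf3), with wider errors. The PN14 over PN9 calls depended on the arrays included: Elf3 was lost without any array of PN9, PN14 or PN20 (highest adjusted p = 0.132), and Grhl3 without any PN9 array or PN14 replicate 1 or 2 (highest 0.127). Without Klf4CN replicate 3, which enters the age comparisons only through the shared spread, 5 members passed for PN14 over PN9 (Ehf, Elf3, Grhl1, Grhl3 and Trp63, with 14.7% of all genes called) and 7 for PN20 over PN9 (30.6% called), none passed for PN20 over PN14 (5.12% called), and 6 passed by the F test (28.8% called). Of the PN20 over PN9 calls, that of Ehf ended without PN9 replicate 2 (adjusted p = 0.0508), and the others held whichever array was left out. For the F test, Trp63, Ehf and Grhl1 each lost their call without some arrays: without PN9 replicate 1 or 3 or PN20 replicate 3 the count was 3, and without PN9 replicate 2 or PN20 replicate 1 or 2 it was 2.

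Most of the members' other probe sets were dim. Ehf had 2 more kept probe sets. On 1419475_a_at it gave 42.6, 30.4 and 30.2 at PN9, 160.4, 149 and 103 at PN14 and 109.5, 161 and 164 at PN20, and rose by 1.67 ± 0.40 at PN20 over PN9 (adjusted p = 0.0112 over all kept probe sets). It also passed there at PN14 over PN9 (1.60 ± 0.40, adjusted p = 0.0384), where the brightest probe set of Ehf did not, and it was Present on 1 of 3 PN9 arrays. On 1419474_a_at it gave 769, 383 and 519, 388, 452 and 699 and 683, 887 and 809.7 at the same ages, with overlapping arrays and a change of 0.55 ± 0.35 that did not pass (adjusted p = 0.321). The 3 kept probe sets of Ehf thus gave different calls. The second probe set of Ovol1, 1419052_at, had 3, 12.7 and 13.4 at PN9, where it was Present on no array, and 25.4, 31.7 and 75.8 at PN20. The difference passed (adjusted p = 0.0325), unlike that of the brighter one, and no size is given because the probe set was not detected at PN9. The second probe set of Trp63, 1459581_at, changed by 0.33 ± 0.29 (adjusted p = 0.488), with PN9 replicate 2 far below the other arrays. The 3 other kept probe sets of Grhl2 had signals of 1.2 to 49.7 on the 12 arrays. Of these, 2 were Present on no array and 1 on a single PN9 array, so that only the brightest probe set of Grhl2 gives a measured change with age. Foxc1 had another probe set without a passing change, Sox9 had 2 and Pax6 had 3, and 4 probe sets of Pax6, Trp63 and Ehf were not kept.

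**Figure D3:**
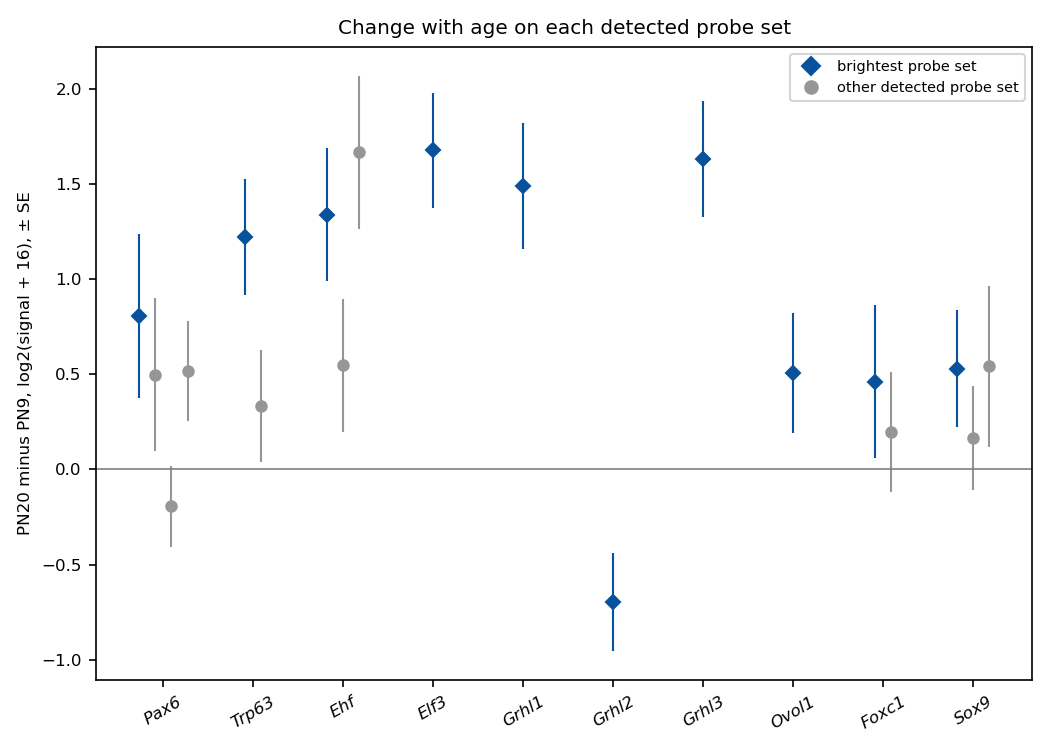
PN20 minus PN9 difference in log2(signal + 16), ± limma's standard error, on the 19 kept probe sets of the 10 genes with a Present call on at least 1 array at PN9 and at PN20. The other 4 kept probe sets, 3 of Grhl2 and 1 of Ovol1, lack such calls and are not drawn. Blue diamonds are the brightest probe set of each gene and grey circles its others. The 3 sets of Ehf lie at 1.34, 1.67 and 0.55, and that of Grhl2 at -0.70.

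In Klf4CN at PN14 none of the 10 genes passed against wild type of the same age, where 0.184% of all genes, 26, did. Grhl3 was the member with an unadjusted p under 0.05, as 1216 of all genes had. The median change of the 10 was -0.066, beside -0.00059 for all genes. Only 3 arrays a group, of which Klf4CN replicate 3 stood apart, bear on these values, so intervals are wide. Each gene is therefore given with that array and without it. Markers of goblet cells moved with the genotype: the 5 of that list summed to 272 to 398 on the Klf4CN arrays, against 1214 to 1959 in wild type at PN14. The mucin gene Muc5ac was the member of that list that fell, with 5.1, 2 and 3.2 in Klf4CN, against 1064, 883 and 515 in wild type (adjusted p = 0.000594). The part of goblet cells in the values below was not tested.

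Grhl3 gave 121, 135 and 60.8 in Klf4CN, against 174, 259 and 146 in wild type. Every Klf4CN array was below every wild-type array, as for 6.63% of all genes, and the Klf4CN mean of 106 ± 39.3 lay nearer to the PN9 mean of 74.8 ± 16.3 than to that of PN14 in wild type, 193 ± 59.1 (SD, n = 3 each). The change was -0.81 ± 0.30, 1.75-fold lower (unadjusted p = 0.0186, adjusted p = 0.468, 95% interval -1.45 to -0.16). Without Klf4CN replicate 3 it was -0.50 ± 0.29 (adjusted p = 0.514), with the arrays still apart.

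Elf3 gave 1248, 1116 and 448 in Klf4CN, against 905, 1415 and 1065 in wild type. The groups overlapped, with a change of -0.37 ± 0.30 (95% interval -1.02 to 0.29) that turned to 0.088 ± 0.19 without Klf4CN replicate 3. Grhl1 gave 1334, 1534 and 492, against 988, 1507 and 979 in wild type, and its change of -0.17 ± 0.34 turned to 0.33 ± 0.21. For Pax6, with 1115, 1581 and 286 in Klf4CN, against 1237, 1468 and 987 in wild type, the low value of replicate 3 decided the sign: -0.59 ± 0.44 with it and 0.13 ± 0.23 without it.

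Ehf gave 2392, 3055 and 826 in Klf4CN, against 1738, 1644 and 1284 in wild type, and Trp63 gave 2967, 3436 and 1218, against 2218, 2644 and 1689. In both genes Klf4CN replicates 1 and 2 were above all wild-type arrays and replicate 3 below them. The changes were 0.24 ± 0.35 for Ehf and 0.11 ± 0.31 for Trp63. Without replicate 3, Ehf was 1.74-fold higher (0.80 ± 0.19, adjusted p = 0.0951) and Trp63 1.48-fold higher (0.57 ± 0.20, adjusted p = 0.239), and neither passed. The other kept probe set of Trp63, 1459581_at, went the other way, with 111.3, 106 and 73.8 in Klf4CN, against 140.4, 154.3 and 152.3 in wild type. Every Klf4CN array was below every wild-type array there. The change of -0.56 ± 0.29 did not pass (adjusted p = 0.704 over all kept probe sets).

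Foxc1 gave 623, 725 and 183 in Klf4CN, against 389.8, 323 and 472 in wild type. It had the same layout, with a change of 0.16 ± 0.41, and of 0.76 ± 0.28 without replicate 3 (adjusted p = 0.277). Sox9 gave 213, 184 and 192 in Klf4CN, against 120.5, 131 and 142 in wild type. On this brightest probe set of Sox9, all 3 Klf4CN arrays, replicate 3 included, lay above all wild-type arrays, as for 6.47% of all genes. Its change of 0.53 ± 0.31 did not pass (adjusted p = 0.669), nor did that of 0.54 ± 0.35 without replicate 3 (adjusted p = 0.567). On 1451538_at, also Present on all arrays, Sox9 gave 161, 116 and 74.9 in Klf4CN, against 104, 193 and 122 in wild type. The genotypes overlapped there, with a change of -0.23 ± 0.27 (adjusted p = 0.891 over all kept probe sets). The dim 1433889_at changed by 0.40 ± 0.42.

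Grhl2 gave 563, 478 and 338 in Klf4CN, against 326, 492 and 521 in wild type, a change of 0.041 ± 0.25 (95% interval -0.51 to 0.59), and of 0.24 ± 0.25 without replicate 3. Ovol1 gave 79.2, 48.4 and 25.9 in Klf4CN, against 59.1, 107 and 74.8 in wild type, a change of -0.57 ± 0.32, and of -0.27 ± 0.31 without replicate 3. The arrays of both genes overlapped between genotypes. Without Klf4CN replicate 3, still none of the 10 genes passed, where 0.501% of all genes did, and the authors' rule in their deposited table named none of the 10 and 0.946% of all genes.

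**Figure D4:**
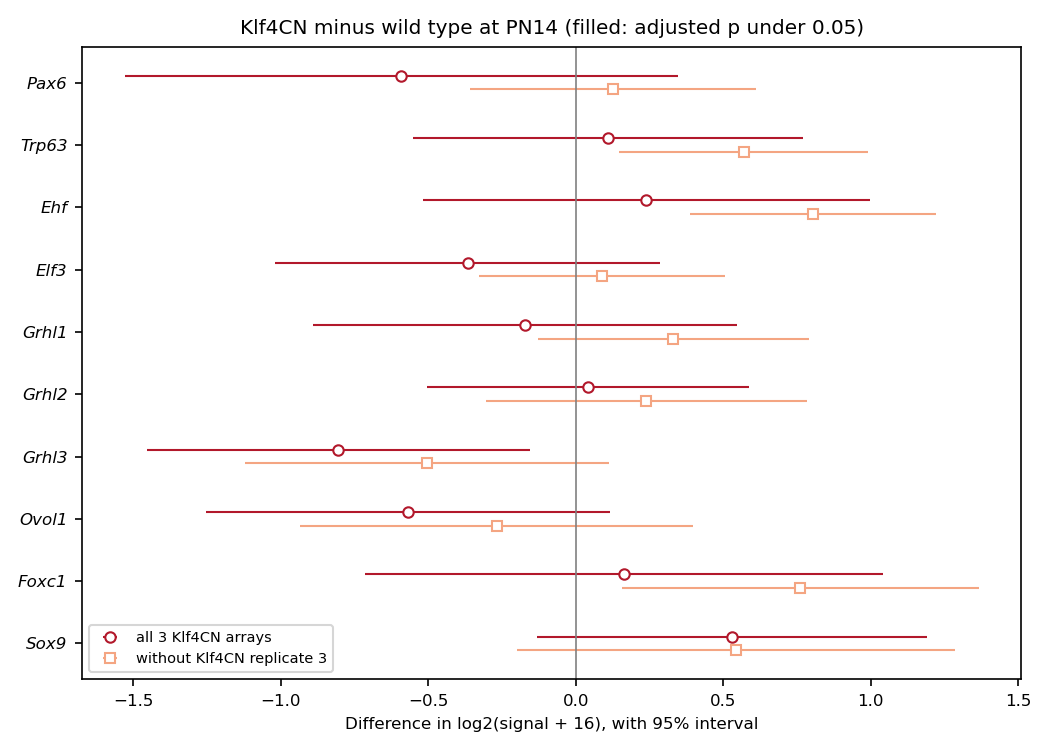
Klf4CN minus wild type at PN14 in log2(signal + 16), with 95% intervals from limma, for the 10 genes. Circles use all 3 Klf4CN arrays and squares leave out Klf4CN replicate 3, and all are open because no adjusted p was under 0.05. Without that array the estimates of Pax6, Elf3 and Grhl1 move to above 0.

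Among 25 measured of 30 other transcription factors of surface epithelia, 8 rose and none fell at PN20 over PN9, 3 rose at PN14 over PN9, 1 rose at PN20 over PN14 and none passed in Klf4CN. Over all genes, 24.3%, 7%, 1.35% and 0.184% were called in either direction in these comparisons. Without Klf4CN replicate 3, 11 rose and 1 fell at PN20 over PN9, where 30.6% of all genes were called, and 4 rose at PN20 over PN14, where 5.12% were. The median change at PN20 over PN9 was 0.48, beside 0.023 for all genes. Spdef, a driver of goblet cell fate, rose 5.3-fold (2.41 ± 0.22, adjusted p = 3.95e-05), and averaged 206 ± 30.1 at PN20, against 25.8 ± 4.22 at PN9. Foxa1, a forkhead factor of glandular epithelium, rose 3.67-fold (1.88 ± 0.43, adjusted p = 0.00674). Sox21 rose 2.76-fold (1.46 ± 0.29, adjusted p = 0.00266) and Klf4 itself 2.37-fold (1.24 ± 0.19, adjusted p = 0.000601). Goblet cell markers moved along with these: the 5 of that list, Spdef among them, summed to 3926 to 6092 at PN20 and 258 to 513 at PN9, with all 5 called higher, and their part in the members' changes was not tested.

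Of 6 repressors of epithelial genes, which work in mesenchymal cells and in epithelial to mesenchymal transition, 5 fell at PN20 over PN9, 3 at PN14 over PN9, 1 at PN20 over PN14 (2 without Klf4CN replicate 3) and none passed in Klf4CN. Over all genes, 10.8% were called lower at PN20 over PN9, and in either direction 24.3% there, 7% at PN14 over PN9, 1.35% at PN20 over PN14 (5.12% without Klf4CN replicate 3) and 0.184% in Klf4CN. Twist1 fell 4.3-fold (-2.10 ± 0.24, adjusted p = 0.000102), and averaged 78 ± 2.94 at PN20, against 391 ± 61.7 at PN9. Zeb2 fell 2.54-fold (-1.34 ± 0.27, adjusted p = 0.0029), Twist2 2.38-fold (-1.25 ± 0.21, adjusted p = 0.00118) and Zeb1 2.11-fold (-1.08 ± 0.23, adjusted p = 0.00416). Snai2 fell 2.03-fold (-1.02 ± 0.19, adjusted p = 0.00857) at PN14 over PN9. The 9 measured stromal markers moved the same way, with 5 lower at PN20 over PN9 and summed signals of 30947 to 32774 at PN20, against 43744 to 56729.6 at PN9. Epithelial markers summed to 37075 to 40897 at PN20, against 24869.9 to 44420.2 at PN9, which overlap. Of these 9, 2 rose at PN20 over PN9 (Krt13 and Epcam) and 1 fell (Krt14), where 24.3% of all genes were called in either direction. Without Klf4CN replicate 3, 3 rose and 1 fell, where 30.6% were called. The part of stroma and of epithelium in the changes of the repressors and of the 10 genes was not tested.

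Of 25 measured of 26 genes known as targets or dependents of the 10 factors, 3 rose and 4 fell at PN20 over PN9, 3 fell at PN14 over PN9, 1 rose at PN20 over PN14, and none passed in Klf4CN. Over all genes, 24.3%, 7%, 1.35% and 0.184% were called in either direction, and the share called at PN20 over PN9 was near that of all genes, so that it is no result about this list. Without Klf4CN replicate 3, 7 rose and 5 fell at PN20 over PN9 (30.6% of all genes called), 2 rose and 3 fell at PN14 over PN9 (14.7%), and 3 rose and 1 fell at PN20 over PN14 (5.12%). Epcam, an adhesion molecule placed under grainyhead-like factors, rose 3.38-fold (1.76 ± 0.40, adjusted p = 0.00634). The tight junction gene Cldn4, placed under the same factors, rose 2.04-fold (1.03 ± 0.26, adjusted p = 0.0113), a call that ended without PN20 replicate 3 (adjusted p = 0.0604). Tgm1, also placed under them, went the other way and fell 2.06-fold at PN14 over PN9 (-1.05 ± 0.29, adjusted p = 0.0438). That call ended when any 1 of 7 arrays was left out (highest adjusted p = 0.148). At PN20 over PN9 the basal genes Itgb4 and Krt14, both placed under Trp63, fell 2.04-fold (-1.03 ± 0.22, adjusted p = 0.00448) and 1.94-fold (-0.95 ± 0.28, adjusted p = 0.0236). Krt5, another basal gene placed under Trp63, did not pass. It gave 8749, 9775 and 5486 at PN9 and 8633, 8788 and 7847.5 at PN20, which overlap. The Krt14 call ended without PN9 replicate 1 or 2 or any PN20 array (highest adjusted p = 0.11).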

How the data were processed

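Laser-captured epithelium of the conjunctival fornix was measured on 12 Affymetrix arrays. The deposited signal intensity of each probe set was made by the authors with GCOS 1.4, per the submitters' processing notes, and is scaled, per the file headers, so that the 2% trimmed mean of each array is 150. The authors also deposited, for each group, a count (0 to 3) of arrays with a Present call, and for each pair of groups a score that adds up the increase and decrease calls of its 9 array pairs. Per the file headers, a comparison passed their rule where the higher group was Present on all 3 arrays, groups did not overlap, means differed over 2-fold and the score lay beyond 5. RNA was amplified in 2 cycles, per the labels, which shortens transcripts and can favour probe sets near the 3' end.

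Probe sets above the 40th percentile of their array on at least 3 arrays were kept (30600, controls left out), and arrays were scaled to a common median of these (medians 70.9 to 91.85, factors 0.876 to 1.14). The kept probe set with the highest mean stood for its gene, with symbols from the platform annotation updated through RefSeq's gene table. The values log2(signal + 16) were fitted with limma 3.58.1 in R 4.3.3, 1 mean per group over all 12 arrays (8 residual and 6.02 prior degrees of freedom, trended variance), with Benjamini-Hochberg adjustment over 14163 genes and a threshold of 0.05. The fit was tested on simulated data. The members and the companion lists were chosen with earlier results of these data known, and genes named from the lists are up to 4 per list and comparison that passed, by size of change, of which not all are printed. Alternatives changed the offset, scaling, filter, choice of probe set, arrays fitted and covariates. Array signal, not read depth, limits the precision. Expression levels of different probe sets were not compared.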

Additional observations from a re-analysis of the deposited data

How the results depend on the processing

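The 5 calls at PN20 over PN9 held under every alternative other than the actin covariate, and, for Ehf, leaving out PN9 replicate 2. Of 480 values of single members under alternatives other than leaving out 1 array, 454 kept direction and side of the threshold, 8 lost and 7 gained a call, and 11 changed sign. Of the 480 with 1 array left out, the numbers were 436, 15, 7 and 22. None of the sign changes concerned a value that had passed, and the cause of these differences was not tested.

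Members called for PN14 over PN9 numbered 1 when arrays were set to the median of all probe sets, 5 with only the groups compared, 0 with the actin covariate and 0 to 5 with 1 array left out. For PN20 over PN9 they numbered 0 with the actin covariate and 4 to 7 with 1 array left out. For the F test they numbered 3 with the median of all probe sets, 3 with the mean of kept probe sets, 0 with the actin covariate and 2 to 6 with 1 array left out.

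All genes called for PN14 over PN9, 992, became 566 with the median of all probe sets, 47 with the actin covariate and 297 to 2075 with 1 array left out (lowest without PN14 replicate 1, highest without Klf4CN replicate 3). For PN20 over PN14, 191 became 100 with the median of all probe sets, 112 with no filter, 106 with the mean of kept probe sets, 1137 with only the groups compared, 82 with the actin covariate, 417 by the authors' rule and 2 to 725 with 1 array left out (lowest without PN20 replicate 2). For PN20 over PN9, 3443 became 5210 of the kept probe sets each tested on its own, 235 with the actin covariate, 1911 by the authors' rule and 2090 to 4336 with 1 array left out. In Klf4CN, 26 became 10 with the median of all probe sets, 17 with each kept probe set on its own, 6 with only the groups compared, 7 with the actin covariate, 134 by the authors' rule and 4 to 71 with 1 array left out. By the F test, 2850 became 4278 with each kept probe set on its own, 210 with the actin covariate and 1602 to 4073 with 1 array left out. The values as deposited moved the median PN20 over PN9 change of all genes by -0.13, and the share of higher calls was 40.7% there, against 55.5% after scaling. For PN14 over PN9 that share was 62% after scaling, 48.1% as deposited, 51.8% with quantile normalization and 74.9% with the median of all probe sets. For PN20 over PN14 it was 49.7%, and 28% with the median of all probe sets.

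The replicate numbers did not pair the samples: of 12 pairs of same-numbered arrays 3 had deviations correlated over 0.1 (r from -0.21 to 0.27), and 3 matched best with their own number. With the replicate number as a block the members called stayed at 2, 0, 5 and 0 in the comparisons and at 5 by the F test, and genes called for PN20 over PN14 numbered 102.

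Signs changed as follows. With the median of all probe sets the PN14 over PN9 change was 0.0098 for Foxc1 and 0.057 for Sox9. With the mean of kept probe sets, which for Grhl2 and Ovol1 takes in probe sets that were not detected, it was 0.14 for Sox9 and 0.069 for Grhl2, the PN20 over PN14 change was 0.033 for Grhl2 and 0.069 for Ovol1, the PN20 over PN9 change of Grhl2 was 0.10, and in Klf4CN the change was -0.014 for Grhl2 and -0.23 for Trp63. With the actin covariate it was 0.024 for Ovol1 at PN20 over PN14 and -0.0091 for Trp63 in Klf4CN. With 1 array left out, the Klf4CN change ranged from -0.13 to 0.80 for Ehf, from -0.63 to 0.088 for Elf3, from -0.19 to 0.76 for Foxc1, from -0.47 to 0.33 for Grhl1, from -0.16 to 0.24 for Grhl2, from -1.07 to 0.13 for Pax6 and from -0.17 to 0.57 for Trp63. The PN14 over PN9 change ranged from -0.42 to 0.11 for Foxc1 and from -0.38 to 0.31 for Sox9, and the PN20 over PN14 change of Ovol1 from -0.30 to 0.17.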
